A study of Mus musculus with 2 samples.

Results

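Cell cycle genes were described in osteoclast cultures of wild type and Dnmt3a knockout mice. The set holds 54 genes listed by symbol, and its members were found as the array probes whose RefSeq accession belongs to a listed gene. All 54 had a probe, of 20654 named genes with one. They were ordered by role into 17 genes of DNA replication and S phase, 10 drivers of G1 and of the entry into S phase, 23 genes of G2 and mitosis and 4 inhibitors of cyclin-dependent kinases. The measurement was 1-colour (Cy3) Agilent expression profiling of total RNA. One group was wild type and the other Dnmt3a knockout, both of female mice on the C57BL/6 background, with 1 array each. In both, bone marrow cells were grown in M-CSF, a survival and growth factor of macrophages, until adherent monocyte/macrophage precursors were obtained, and these were then given RANKL together with M-CSF to form osteoclasts, the cells that resorb bone. The deleted allele, any Cre driver, the ages and the number of mice behind each array are not given in the sources used here.

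The cell cycle is driven by cyclins and the kinases (CDKs) they activate. D-type cyclins with Cdk4 or Cdk6, and then E-type cyclins with Cdk2, inactivate the retinoblastoma protein and so free E2F transcription factors, which turn on the replication genes. Late in the cycle a second wave, driven by B-Myb (Mybl2) and Foxm1, turns on the mitosis genes. Osteoclast precursors divide in response to M-CSF and leave the cycle as they fuse into multinucleated cells, so an osteoclast culture holds RNA of both dividing precursors and cells that no longer divide. In such a bulk sample, fewer cells of a type and less RNA per cell cannot be told apart.

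Values are processed signals (intensities after background subtraction). A difference is the log2 signal of the knockout array minus that of the wild type array, each first divided by its array's 75th percentile. The error beside it is the scanner software's error of the spots, carried to log2. Since each genotype has 1 array, no replicate exists, no test across samples was run and no p-value is given, and the error covers the reading of a spot, not the variation between cultures or mice. Genes whose probe stood well above background in the wild type and the knockout are called measured. There were 13479 of them, and 52 of the 54 members were among them. Across all measured genes the median difference was 0.01 and the SD 0.37. Of the array spots that were not controls, 52.7% (wild type) and 59.7% (knockout) were well above background. Dnmt3a, the check of the label, gave 7042 (wild type) and 1822 (knockout), a difference of -1.92 (error 0.20); it is not known whether the probe matches deleted sequence.

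By their medians the replication and mitosis genes lay close to the bulk of all genes, while the G1 regulators spread to both sides. The median difference was 0.04 over the 16 measured replication genes, 0.06 over the 23 mitosis genes, -0.25 over 9 G1 genes and 0.15 over the 4 inhibitors. Over all 52 measured members it was 0.04, with 30 members higher and 22 lower on the knockout array. Over all measured genes 48.1% were lower, so this split was near the background. The SD over the members, 0.35, was also close to that of all genes. The largest departures were those of the mitotic kinase Aurkb (2.83-fold lower), the helicase subunit Mcm6 (1.66-fold lower), the D-type cyclin Ccnd3 (1.57-fold higher) and the transcription factor E2f2 (1.56-fold higher).

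Those 4 genes were all the members past 1.5-fold. The count of 2 higher stands beside 5.82% of all measured genes at least 1.5-fold higher, and the count of 2 lower beside 4.69% at least 1.5-fold lower. No member was 2-fold higher, where 0.824% of all genes were, and 1 member, Aurkb, was at least 2-fold lower, where 0.727% of all genes were. These shares are near the background and are no result about the set. The difference exceeded its own scanner error in 24 of the 52 members, and in 45.6% of all measured genes. By role, 12 of 16 replication genes and 13 of 23 mitosis genes lay within that error, against 1 of 9 G1 genes and 2 of 4 inhibitors. That error is larger than the scatter among repeats of a probe (median SD 0.07 over 259 probes spotted at least 8 times), so a difference within it is not shown to be absent.

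**Figure D1:**
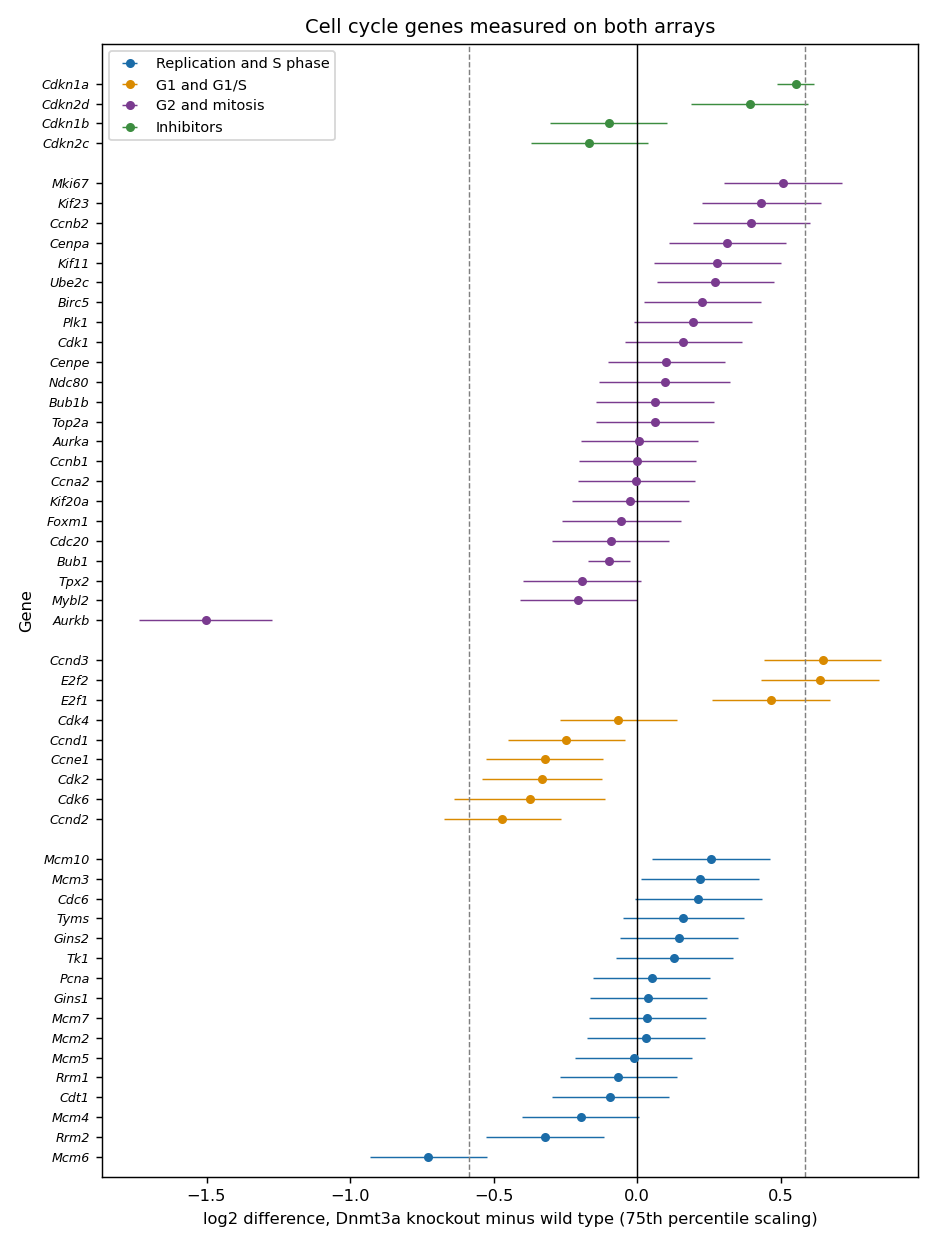
Log2 difference (knockout minus wild type) of each of the 52 cell cycle genes measured on both arrays, by role; bars are the scanner software's error, the solid line is 0 and dashed lines mark 1.5-fold. Replication genes reach from -0.73 (Mcm6) to 0.26 (Mcm10), mitosis genes from -1.50 (Aurkb) to 0.51 (Mki67) and G1 genes from -0.47 to 0.65.

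Directions depend on how the arrays are scaled. Scaling to each array's median instead of its 75th percentile moves every difference by -0.20, and scaling to the 8 spike-in probes moves it by -0.53. The number of members above 0 was 30 in the main setting, 15 with median scaling and 3 with spike-in scaling. The bulk of the genes moved in the same way, to a median of -0.18 and of -0.51, so the directions below are relative to that bulk. The 3 members above 0 in every setting that could be run, spike-in scaling included, were Ccnd3, E2f2 and Cdkn1a (0.12, 0.11 and 0.03 with spike-in scaling).

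Replication starts with the loading of the Mcm2 to Mcm7 helicase onto DNA by Cdc6 and Cdt1. Of the 6 helicase subunits, Mcm6 stood apart: its signal was 15404 in the wild type and 9109.6 in the knockout, a difference of -0.73 (error 0.20), at percentile 2.35 of all measured genes. Over the alternatives its difference lay between -1.25 and -0.73. The other 5 subunits lay between -0.20 and 0.22, with a median of 0.03. Mcm2 had signals of 538 and 538 (0.03), Mcm3 of 2925 and 3335 (0.22), Mcm4 of 3306 and 2826 (-0.20), Mcm5 of 1698 and 1650.0 (-0.01) and Mcm7 of 3013.5 and 3024 (0.03), wild type first. The helicase acts as a ring with 1 copy of each subunit, and 1 of the 6 transcripts differed from the rest on these arrays. Mcm6 and its fellow subunits had 1 probe each, so no further probe bears on the Mcm6 value.

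The loading factors and the proteins that fire the origin lay between -0.09 and 0.26 by their brightest probes, and of these Mcm10 exceeded its error. Cdt1 gave 11562 and 10619 (-0.09, error 0.20) and Cdc6 gave 119 and 135 (0.21, error 0.22), with a further Cdc6 probe at 0.28. Mcm10, which helps to activate the loaded helicase, gave 519 and 608 (0.26, error 0.21). The GINS subunits Gins1 (490.0 and 493) and Gins2 (495 and 537) differed by 0.04 and 0.15.

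Among the genes of DNA synthesis itself, Pcna, the sliding clamp of the polymerases, gave 13174 and 13366 (0.05). The enzymes that supply nucleotides went both ways. Rrm2, the regulated subunit of ribonucleotide reductase, gave 2134 and 1674 (-0.32, error 0.20), whereas its partner Rrm1 gave 2368 and 2216 (-0.07). Thymidylate synthase Tyms (213 and 234) and thymidine kinase Tk1 (2079 and 2226) differed by 0.16 and 0.13, within the error. The checkpoint kinase Chek1 was well above background on the knockout array only, with signals of 22.1 and 29.4. Set against the dimmest wild type signal that passed as above background, it was 0.22 higher on the log2 scale. This is no strict lower bound, as a Foxm1 probe with a brighter wild type signal (27.8) did not pass. The error of Chek1 (0.52) is larger than that value.

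**Figure D2:**
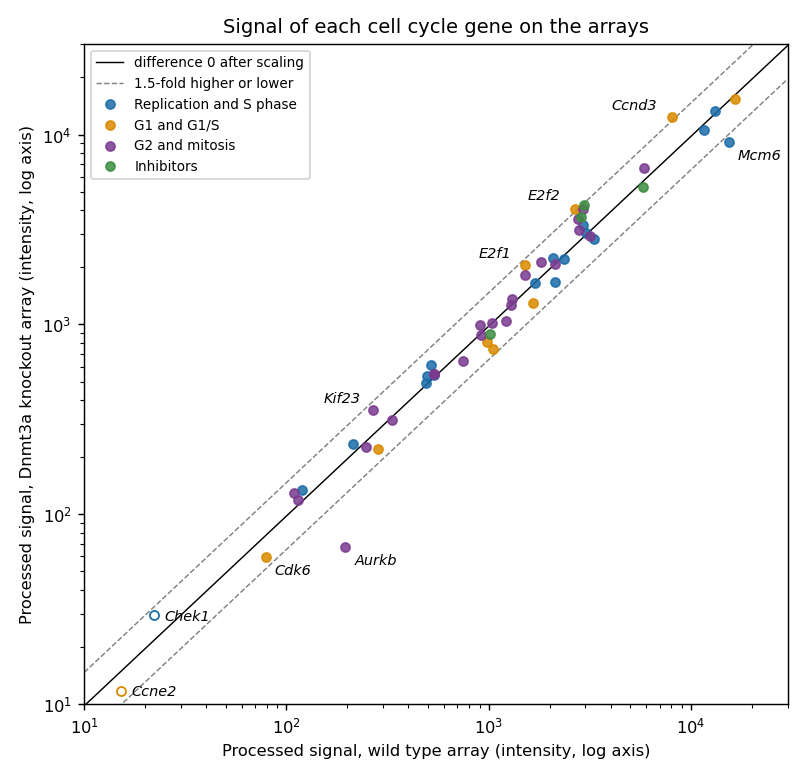
Processed signal of each of the 54 cell cycle genes on the wild type array (horizontal) and the knockout array (vertical), both on log axes; filled points are measured on both arrays, open points are not well above background on at least 1, and lines mark no difference and 1.5-fold after scaling. Aurkb (195 and 67.5) and Mcm6 (15404 and 9109.6) lie below the lower dashed line, and Ccnd3 and E2f2 on the upper side just past 1.5-fold.

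The promoters of the lowest and the highest of the helicase subunits are shown because both are E2F-regulated genes of 1 complex whose transcripts differed between these arrays by unequal amounts. Each is the 150 bases before the RefSeq start (GRCm38.p6), 5′ to 3′, with capitals at E2F words (TTCCCGC and TTGGCGC, and likewise TTCGCGC and also TTGCCGC, on either strand) and at CCAAT boxes (CCAAT, either strand); E2F words on opposite strands can overlap.
Mcm6 (chr1:128359706-128359855, strand -): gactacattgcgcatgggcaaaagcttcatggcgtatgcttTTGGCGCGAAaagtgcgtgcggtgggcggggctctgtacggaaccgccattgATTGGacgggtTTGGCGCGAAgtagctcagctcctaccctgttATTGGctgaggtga
Mcm3 (chr1:20820313-20820462, strand -): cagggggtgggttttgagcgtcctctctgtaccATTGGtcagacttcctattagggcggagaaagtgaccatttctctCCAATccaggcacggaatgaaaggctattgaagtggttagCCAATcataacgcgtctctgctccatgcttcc
The Mcm6 stretch holds 4 E2F words as 2 overlapping pairs, and 2 CCAAT boxes; a further E2F word follows its start. The Mcm3 stretch holds 3 CCAAT boxes and no E2F word, but 3 E2F words lie in the 50 bases after its start. A match is a description of letters, not a bound site.

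RefSeq promoters (300 bases, 250 before to 50 after the start) were matched for 43 of the 54 members. An E2F word was present in 9 of 14 replication genes (64.3%), against 18.0% of the 10797 genes measured on both arrays that had a promoter and 10.9% of all 27025 genes with one. The 8 replication genes measured on both arrays with such a word had a median difference of -0.04 (from -0.73 in Mcm6 to 0.22 in Mcm3). The 5 without it, Mcm2, Mcm10, Pcna, Tyms and Tk1, had a median of 0.13, from 0.03 to 0.26. The split was made after the values were seen and carries no test.

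The G1 regulators had the largest SD of the 4 groups (0.46), with 6 genes below 0 and 3 above; the range was widest in mitosis, through Aurkb. The 3 D-type cyclins went in opposite directions. Ccnd3 gave 8083 in the wild type and 12395 in the knockout, a difference of 0.65 (error 0.20), and its second probe gave 3108 and 4870.5 (0.68). Ccnd2, by contrast, gave 1044 and 739 (-0.47), and Ccnd1 gave 975 and 805 (-0.25), each with 1 probe. D-type cyclins are alternative partners of the same kinases, and on these arrays the signal of 1 was higher while those of the other two were lower. With median scaling the values were 0.45, -0.66 and -0.44, and with spike-in scaling 0.12, -0.996 and -0.77.

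The 3 kinases of G1 were lower on the knockout array, Cdk4 within its error. Cdk4 gave 16531 and 15478 (-0.07, error 0.20), with its other probes at -0.20 and -0.09. Cdk6 gave 78.9 and 59.6 (-0.37, error 0.26), close to background, and was at -0.14 after normexp background correction. Cdk2, the partner of E-type cyclins, gave 282 and 220 (-0.33, error 0.21). Cyclin E1 (Ccne1) gave 1657 and 1299 (-0.32), but a second, dimmer Ccne1 probe gave 69.1 and 77.9 (0.20), so its probes disagree in direction. Cyclin E2 (Ccne2) was not well above background on either array.

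Of the activator E2Fs, the members E2f1 and E2f2 were higher on the knockout array, and E2f3, from the list of other G1/S regulators and added after its value was seen, was lower. E2f2 gave 2658 and 4048 (0.64, error 0.20) and E2f1 gave 1513 and 2048 (0.47, error 0.20), each from 1 probe. E2f3 gave 1144 and 926 (-0.27, error 0.20), with a second probe at -0.03. E2f2 and E2f1 lay at percentiles 95.3 and 90.7 of all measured genes, and Ccnd3 at 95.5. With spike-in scaling E2f1 turned to -0.06 while E2f2 stayed at 0.11. None of the 16 measured replication members was higher by that much: the highest was Mcm10 at 0.26. In the list of other replication genes (median 0.02) the highest were Clspn, dim in the wild type, at 1.67 and Lig1 at 0.42. A link between the E2F values and those of replication genes was not tested.

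The mitosis genes were mostly at or slightly above 0 in the main setting, with 15 of 23 higher on the knockout array. Over all measured genes 48.1% were lower, and 13 of the 23 lay within their scanner error. With median scaling the median of the 23 was -0.13 and with spike-in scaling -0.46. Of the 2 regulators named above, Mybl2 gave 1222 and 1039 (-0.21, error 0.20, its second probe -0.50), lower by slightly more than its error. Foxm1 gave 331 and 312 (-0.06), within its error. A link between these values and those of the other mitosis genes was not tested. Cdk1, the mitotic kinase, gave 904 and 990 (0.16), with a second probe at 0.18. Its cyclins differed among themselves: Ccnb2 gave 2772 and 3578 (0.40), Ccnb1 gave 1294 and 1269 (0.00085, its other probes 0.08 and 0.20) and Ccna2 gave 1035 and 1012 (-0.0031). Of the B-type cyclins, Ccnb2 was higher by more than its error and Ccnb1 was not.

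The highest mitosis gene was Mki67, which encodes the Ki-67 protein used as a mark of dividing cells. Its 2 probes gave 2923 and 4072 (0.51) and 1883 and 2662 (0.53), so both probes were higher on the knockout array by a like amount. With spike-in scaling Mki67 was at -0.02. Top2a, the topoisomerase that untangles chromosomes and a further common mark of dividing cells, gave 538 and 550 (0.06) and did not show that difference.

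Among the kinases of mitosis, Aurkb, the kinase of the chromosomal passenger complex, gave 195 in the wild type and 67.5 in the knockout (-1.50, error 0.23), the farthest of all members, at percentile 0.193. After normexp background correction it was at -0.97, short of 2-fold. Its spot, the only one for the gene, lies at row 372 and column 155, near the bottom edge of the array. Of the 50 measured genes nearest to it, 4 (8%) were at least 1.5-fold lower and the median difference was -0.09. The part of array position in the value was not tested. Birc5 (survivin), a partner in the same complex, gave 5826 and 6680.3 (0.23), and its other probes were at 0.44 and 0.18. Incenp, the scaffold of that complex, was at 0.46 and Cdca8 at 0.21; both were added after their values were seen. Aurkb was thus the only 1 of these 4 genes of the complex below 0 in the main setting. Aurka gave 2123 and 2090 (0.0072) and Plk1 gave 2801 and 3140 (0.19).

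Of the genes of the spindle checkpoint and of mitotic exit, Ube2c was higher by more than its error, by its brightest probe only. The others lay between -0.10 and 0.06. Bub1, spotted 8 times, had wild type signals of 218 to 275 and knockout signals of 213 to 236, with spot differences from -0.28 to 0.11 (mean -0.10, SD 0.13). The mean was below 0 by more than its scanner error (0.07), but those spots lay on both sides of 0. Bub1b gave 537 and 549 (0.06). Cdc20, the activator of the anaphase-promoting complex, gave 3180.1 and 2924 (-0.09), and Ube2c, the ubiquitin-conjugating enzyme of that complex, gave 1813 and 2145 (0.27; second probe 0.19).

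The centromere and spindle genes were higher or near 0. Cenpa, the centromere histone, gave 1505 and 1832 (0.31), Cenpe gave 1298 and 1364 (0.10) and the kinetochore protein Ndc80 gave 113 and 119 (0.10). The spindle motor Kif11 gave 109 and 129 (0.28, error 0.22), Kif23, a motor of the midbody, gave 267 and 353 (0.43, error 0.21), and Kif20a gave 917 and 883 (-0.02). Tpx2, which activates Aurka on the spindle, gave 750 and 643 (-0.19), while a second, dimmer probe gave 74.0 and 98.7 (0.45), so its probes disagree in direction. Of 12 members with several probes above background on both arrays, 10 had probes of 1 direction, and the exceptions were Ccne1 and Tpx2.

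Many mitosis promoters carry a CHR element (TTTGAA), through which cell cycle complexes with B-Myb or the retinoblastoma family act, usually downstream of CCAAT boxes. The 150 bases before the start are shown for the 3 mitosis genes with the largest positive differences that had a RefSeq promoter (GRCm38.p6), with capitals at CHR elements, CCAAT boxes and E2F words on either strand.
Mki67 (chr7:135716380-135716529, strand -): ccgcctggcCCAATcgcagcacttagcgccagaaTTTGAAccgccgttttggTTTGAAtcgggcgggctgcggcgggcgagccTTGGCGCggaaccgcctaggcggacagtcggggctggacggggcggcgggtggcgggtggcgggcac
Kif23 (chr9:61946800-61946949, strand -): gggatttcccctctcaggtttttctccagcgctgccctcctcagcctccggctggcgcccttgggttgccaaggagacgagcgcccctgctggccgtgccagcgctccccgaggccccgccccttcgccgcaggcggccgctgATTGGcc
Ccnb2 (chr9:70421555-70421704, strand -): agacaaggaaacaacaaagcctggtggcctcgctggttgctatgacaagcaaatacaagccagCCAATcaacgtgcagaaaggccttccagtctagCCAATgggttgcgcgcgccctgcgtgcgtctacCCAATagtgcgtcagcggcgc
The Mki67 stretch holds 2 CHR elements, 1 CCAAT box and 1 E2F word. The Kif23 stretch holds 1 CCAAT box and the Ccnb2 stretch 3, and in both genes a CHR element follows the start, 2 bases after it in Kif23 and 4 in Ccnb2.

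In the full 300-base promoters a CHR element was present in 13 of 18 mitosis genes (72.2%), against 14.8% of the genes measured on both arrays and 20.2% of all genes. Of the 14 replication genes 1 (7.14%) held it. CCAAT boxes were present in 15 of the 18 mitosis genes (83.3%) and in 42.8% of the genes measured on both arrays. The 13 mitosis genes with a CHR element had a median difference of 0.19 (from -0.09 to 0.51). In the main setting 12 of these 13 were above 0, where 48.1% of all measured genes were below 0. With median scaling Cdk1, Plk1, Ndc80, Top2a, Bub1b and Aurka also lay below 0, and with spike-in scaling all 13 did. The 5 without a CHR element, Ccnb1, Mybl2, Birc5, Bub1 and Cenpe, had a median of 0.00085 (from -0.21 to 0.23). The ranges overlap, the split was made after the values were seen, and it was not tested. Aurkb, Foxm1, Ccna2, Kif20a and Tpx2 had no promoter entry and are in neither group.

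The inhibitors of cyclin-dependent kinases divided into 2 higher and 2 near 0. Cdkn1a, an inhibitor induced by p53 and in differentiating cells, was spotted 10 times, with wild type signals of 2861 to 3028 and knockout signals of 3939 to 4392. Every spot was higher on the knockout array and the ranges did not overlap (difference 0.55, spot SD 0.04, lowest 0.45, highest 0.60), and a further Cdkn1a probe gave 115 and 182 (0.69). Its value thus rests on more spots than that of any other member, all from the same RNA. Cdkn2d, an inhibitor of Cdk4 and Cdk6, gave 2858 and 3673 (0.39, error 0.20). Its relative Cdkn2c gave 1017 and 888 (-0.17), and Cdkn1b gave 5819 and 5323 (-0.10), both within the error. With spike-in scaling Cdkn1a was at 0.03 and Cdkn2d at -0.13.

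Other genes of the same pathway, from lists that hold none of the members, had a median near that of all genes, and their G1/S regulators spread less than the G1 members (SD 0.21 against 0.46). Over 154 measured genes the median was 0.05, with 95 above 0 and 59 below, where 48.1% of all measured genes were below. Past 1.5-fold were 5 upward and 1 downward, against 5.82% and 4.69% of all measured genes. Both counts lie below these background shares. Other replication genes had a median of 0.02 over 45 genes. Clspn, a mediator of the replication checkpoint that acts with Chek1, gave 35.2 and 110 (1.67, error 0.33) and was the only 1 of them past 1.5-fold; its wild type signal lies near the lowest signal well above background there (25.8) and it has 1 probe. After it came the DNA ligase Lig1 (0.42), and the chromatin assembly subunit Chaf1b (-0.53, second probe -0.51) and the origin recognition subunit Orc2 (-0.43) were lowest.

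Other G1/S regulators had a median of -0.02 over 22 genes and none past 1.5-fold. Myc, which drives growth and the entry into the cycle, was lowest with signals of 584 and 387 (-0.57, error 0.15), followed by the Mediator kinase Cdk8 (-0.32, other probes -0.55 and -0.32), while Ccng2 (0.43) and Fbxw7 (0.23), a ubiquitin ligase subunit that marks cyclin E for degradation, were highest. Other mitosis genes were above 0 in 43 of 63 measured genes (median 0.08), where 48.1% of all measured genes were below 0. Of the 63, 37 lay within their scanner error. The citron kinase Cit (41.5 and 65.2, 0.68, error 0.34) and the condensin subunit Ncapg2 (0.63) were highest. The kinesin Kif18a (61.4 and 40.3, -0.58, error 0.29) and Depdc1a (53.7 and 38.1, -0.47, error 0.29) were lowest. Cit, Kif18a and Depdc1a were dim on both arrays.

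Other brakes of the cycle and p53 targets were above 0 in 16 of 25 genes (median 0.20), where 48.1% of all measured genes were below 0. Of the 25, 9 lay within their scanner error. Foxo3, a transcription factor of quiescent cells, was highest but dim (52.1 and 78.0, 0.61, error 0.28). The p53 target Sesn1 (7861 and 11625, 0.59) came next. The inhibitor Cdkn2b gave 3845 and 2489 (-0.60; second probe -0.66) and the kinase Plk3 was at -0.30. With spike-in scaling all these list medians lie below 0, as that of all genes does.

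**Figure D3:**
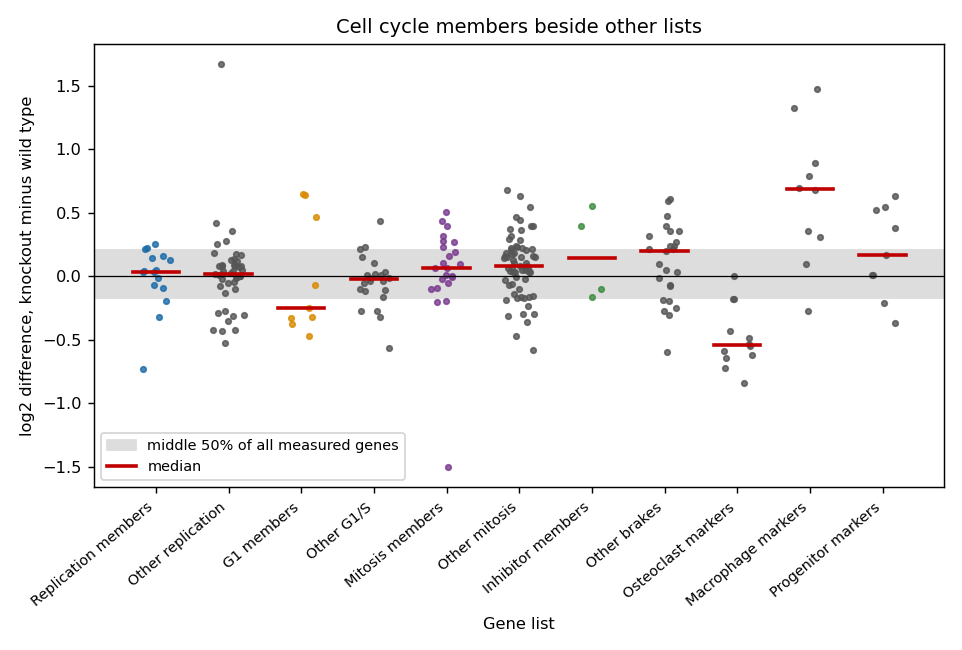
Log2 difference (knockout minus wild type) of each gene measured on both arrays in the 4 groups of cell cycle members, 4 lists of other cell cycle genes and 3 lists of cell type markers; red bars are medians and the grey band is the middle 50% of all measured genes. Cell cycle medians lie inside or near the band apart from the G1 members (-0.25), and the osteoclast (-0.54) and macrophage (0.69) markers lie outside it.

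Osteoclast markers were read beside the cells' labelled type. All 12 were well above background on both arrays, among them Acp5 (451856 and 442434) and Ctsk (413300.0 and 356772). So were all 13 neutrophil markers and 10 of 11 macrophage markers with a probe. Standing above background therefore does not by itself check the label. The marker lists of several cell types lay away from 0. All 12 osteoclast markers were below 0, with a median of -0.54, but 3 lay within their error (Acp5 -0.00055, Ctsk -0.18 and Clcn7 -0.18). Their summed level, in units of each array's 75th percentile, was 2081 in the wild type and 1807 in the knockout. The brightest genes, Acp5 and Ctsk, weigh most in that sum. Over all measured genes 48.1% were below 0. Macrophage markers were above 0 in 9 of 10 measured genes (median 0.69), with sums of 664 and 774. Csf1r (0.10, other probes 0.35 and 0.50) weighs most in these sums. The marker below 0 was Itgam (-0.27), whose other probes were at 0.22 and 0.32, so its probes disagree in direction. Cd163 was not well above background on either array. Neutrophil markers had a median of 0.44, all 13 above 0, with sums of 401 and 495. Stem and progenitor markers had a median of 0.17, 7 of 9 above 0, with sums of 4.29 and 5.17 and Mecom below background. The median of 9 lymphocyte markers was 0.19 (sums 27.1 and 33.0; Igll1, Cd3d and Cd8a below background). Stromal markers had a median of -0.72 over 9 genes (sums 116 and 69.6; Runx2 and Lum below background). The part of these differences in the cell cycle values was not tested.

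**Figure D4:**
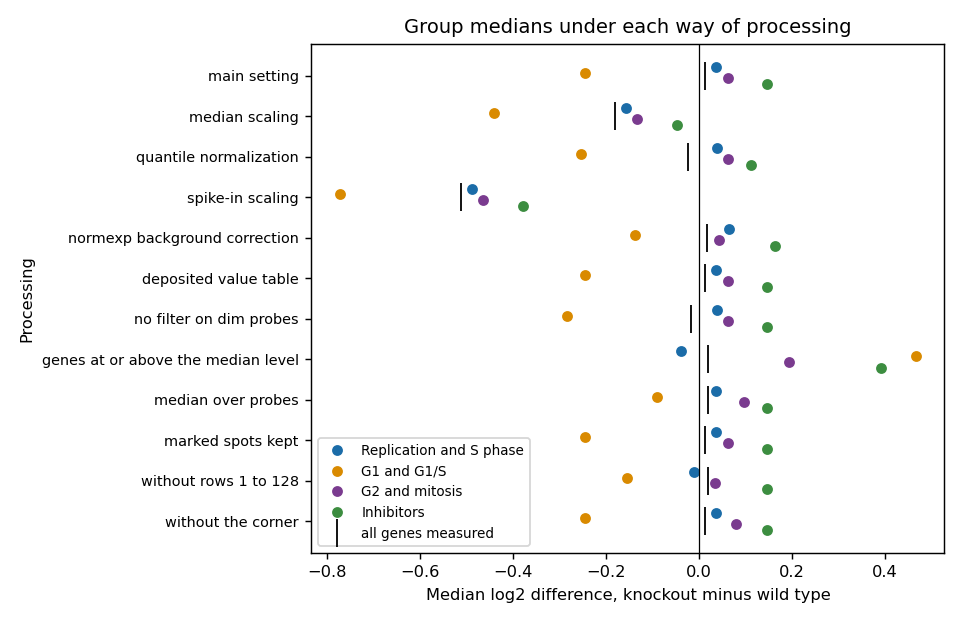
Median log2 difference of each group of cell cycle members (points) and of all measured genes (black strokes) under the main setting and 11 alternatives. Median and spike-in scaling move all medians together, and the G1 median ranges from -0.77 with spike-in scaling to 0.47 when dimmer genes are left out.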

How the data were processed

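Total RNA of 1 wild type and 1 Dnmt3a knockout osteoclast culture was measured on 1-colour arrays of 1 slide. Per the file headers, the deposited intensity of each spot was background-subtracted and spatially detrended by Agilent Feature Extraction 10.10.1.1 (the submitters' processing notes name 9.1) and is not normalized between arrays. Log2 processed signals minus each array's 75th percentile were compared, knockout minus wild type. Spots marked uneven or as population outliers were left out, spots of a probe were averaged, and accessions were matched to RefSeq genes of GRCm38.p6 for names. The brightest probe stood for its gene. The number of arrays limits the precision, and no replicate exists. The deposited value table, whose columns have medians of 59.6 and 66.5, is the processed intensity times 1.55 and 1.54, with no centring and no ratio; how the factor was chosen is unknown.

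The members and lists were chosen with earlier results of these data known. All members were named, with the 2 highest and 2 lowest of each other cell cycle list; further genes are said to be added. The result of 1 marker list is not reported here. Calling used folds of 1.5 and 2. The normexp alternative (limma 3.58.1, R 4.3.3, offset 50) used the median spot signal, since the files used here have no mean signal. Differences were computed in Python 3.11.15 and checked on simulated data.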

Additional observations from a re-analysis of the deposited data

How the results depend on the processing

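Across 11 alternatives, no member past 1.5-fold changed direction, but most of them could not have reversed one. Median and spike-in scaling move all genes by a constant smaller than 1.5-fold. The deposited value table is the processed intensity times a constant for each array. The settings for dim genes, marked spots and array regions kept the values of these members or left the member out. The median over probes could act on Ccnd3 alone. Quantile normalization and normexp correction were the settings that could have changed a sign. Aurkb was present in 9 of the alternatives and E2f2 in 10. Medians were set against the spread between repeated spots (0.07) and counts against a factor of 1.5. With median scaling the medians were -0.16 for all members, -0.16 for replication, -0.44 for G1, -0.13 for mitosis and -0.049 for inhibitors, with 0 members at least 1.5-fold higher. With spike-in scaling they were -0.49, -0.49, -0.77, -0.46 and -0.38, with 0 members past 1.5-fold upward and 18 downward (39.5% of all genes were). The single spike-in probes ranged from 0.30 to 0.74. With genes below the median level left out (29 members remain) the medians were -0.039 for replication, 0.47 for G1 (5 genes), 0.19 for mitosis and 0.39 for inhibitors, with 1 member at least 1.5-fold lower. The G1 median was -0.14 after normexp correction, -0.090 with the median over probes and -0.16 without the top rows of the array. Without those rows, which leaves 35 members, 1 member was at least 1.5-fold higher, as the spot of E2f2 lies there. Without the corner that holds the Aurkb spot, 1 member was at least 1.5-fold lower. Of the single members measured, 52 moved by more than their scanner error with spike-in scaling, 2 with median scaling, 3 with the median over probes and 1, Aurkb, after normexp correction. No paired analysis was possible because each genotype has 1 array. Dim signals carry larger scanner errors, as in Ccne2 (0.68), Chek1 (0.52), Cdk6 (0.26) and Aurkb (0.23).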

Other observations

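The origin recognition complex, which marks the sites where the helicase is loaded, had 4 of its 5 measured subunits below 0, where 48.1% of all measured genes were. Orc2 was at -0.43, Orc4 at -0.42 (second probe -0.40), Orc6 at -0.42 and Orc3 at -0.31 (second probe 0.27), while Orc5 was at 0.02 and Orc1 was not well above background on either array. Apart from Orc2 these genes were picked out after their values were seen.

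The inhibitors of Cdk4 and Cdk6 differed among themselves. Cdkn2b (-0.60) and Cdkn2a (-0.25, signals 173 and 142) were lower on the knockout array and Cdkn2d (0.39) was higher. Cdkn2c (-0.17) lay within its error of 0.20. For Cdkn2a no second probe was above background on both arrays. Cdkn2a was added after its value was seen. The retinoblastoma genes, the targets of those kinases, were higher or near 0: Rb1 was at 0.31 (error 0.07), Rbl2 at 0.22 and Rbl1 at 0.10. They too were added after their values were seen, and with spike-in scaling each would lie below 0.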
